A study of Mus musculus with 8 samples.

Results

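The 10 genes described here belong to TGF-beta and activin signalling. They are the ligand genes Tgfb1, Tgfb2 and Tgfb3, the receptor genes Tgfbr1, Tgfbr2 and Tgfbr3, the activin subunit genes Inhba and Inhbb, the activin antagonist gene Fst and the TGF-beta-induced matrix gene Tgfbi. They were chosen by gene symbol, and all 10 were found once by name among the 46635 loci of the deposited gene table. The study, on the proteins SLMAP and MST3 in gut elongation, sequenced RNA of wild-type mouse small-intestinal mesenchyme: 4 libraries from E17.5 fetuses (age label E17) and 4 from pups at postnatal day 14 (P14). All 8 had the same preparation, in which EDTA was used to take off the epithelium and RNA was extracted from what remained. No transgene, Cre line or agent was named for either age. The series' text counts 4 mice at each age but does not tie a library to an animal, so the p-values measure the spread between these libraries.

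TGF-beta ligands are secreted as latent complexes, held by a propeptide and by matrix-bound LTBP proteins until integrins or proteases release them. The active ligand binds the type II receptor TGFBR2, which recruits and phosphorylates the type I receptor TGFBR1, and the accessory receptor betaglycan (TGFBR3) presents the ligand. Activins are dimers of inhibin beta subunits that signal through their own type II and type I receptors to the same SMAD2 and SMAD3 proteins, and follistatin binds and neutralises them. In the gut wall the pathway is known for its parts in smooth muscle differentiation, matrix production and immune restraint.

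Between E17.5 and P14, 6 of the 10 genes fell and none rose. The decreases were in Fst, Tgfbi, Inhba, Tgfb1, Tgfbr1 and Tgfbr2, and mean FPKM at P14 ran from 31.5% of the E17.5 mean for Inhba to 73.6% for Tgfbr2. Tgfb2, Tgfb3, Tgfbr3 and Inhbb did not pass the test, and in each of these 4 genes the first P14 library lay below the other 3 P14 libraries. FPKM is reads per kilobase of gene length and per unit of library size, so comparisons between genes depend on the length assigned to each gene. Fold changes compare P14 with E17.5 after taking log2(FPKM + 1), and they understate the change of genes near 1 FPKM, such as Inhba and Inhbb. A gene was called when its adjusted p in limma (Benjamini-Hochberg, over all 14044 genes tested) was under 0.05. Of all tested genes 15.0% were called lower at P14 and 9.72% higher. The median log2 fold change was -0.57 over the 10 genes and 0.00 over all tested genes. Without the first P14 library these medians were -0.46 and -0.025.

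Fold changes without the first P14 library are given beside those with it for the 10 genes, but for only some of the pathway genes. That library, P14 replicate 1, stood apart. Its summed FPKM of 14 epithelial markers was 5366, against 131.9 to 734 in the other P14 libraries and 35.4 to 56.7 at E17.5, and 12 of the 14 were at 1 FPKM or more in all P14 libraries. Its sums were 2931 for 10 smooth muscle markers, 1040 for 10 fibroblast markers and 264 for 10 blood endothelial markers, each below the other 7 libraries. In those 7 the ranges for the same lists were 5016 to 11261, 2721 to 3070 and 495 to 733. No marker of these lists was at 0 in all libraries, and 9 of 10 smooth muscle and 9 of 10 fibroblast markers were at 1 FPKM or more in every library. The exception in smooth muscle was Tagln, listed at 0.222 to 1.19 FPKM and overlapping the gene Pcsk7, so its value is uncertain. Of 12 tested epithelial markers, 9 were called higher at P14 and 0 lower with all libraries, and 10 and 0 without P14 replicate 1. Reads assigned to genes numbered between 16660998 and 19496632 per library. The authors' scaling used a library size equal to 0.78 of the assigned reads for P14 replicate 1, and 1.02 to 1.06 of them for the rest, which raises every FPKM of that library against the others. Without it, 7 of the 10 genes fell and 2 rose, where 26.9% of all tested genes fell and 22.6% rose. The ages did not overlap in 7 genes, all lower at P14, as in 20.4% of all tested genes. Without P14 replicate 1 these numbered 7 lower and 2 higher, beside 29.7% and 24.8% of all tested genes. P14 replicate 1 lay below the other P14 libraries in 7 of the 10 genes, as it did in 40.9% of all tested genes. The part of these markers in the results was not tested, and in bulk RNA fewer cells of a type and less RNA per cell cannot be told apart.

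**Figure D1:**
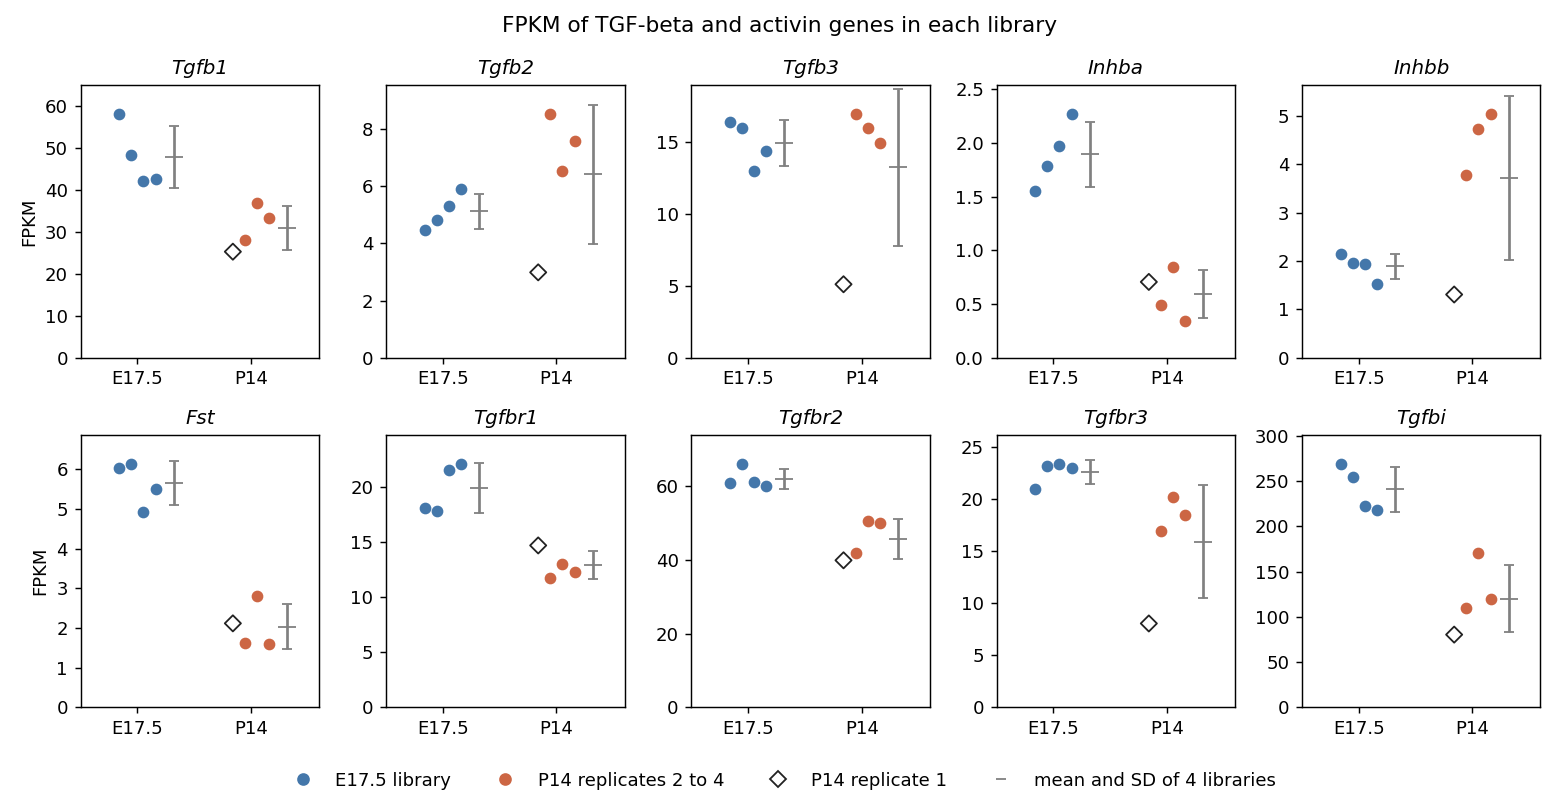
FPKM (y axis, from 0, scaled per gene) of the 10 genes in each library at E17.5 and P14 (x axis), with the mean and SD of the 4 libraries of each age beside the points. P14 replicate 1, the open diamond, is the lowest P14 library for 7 genes, and the ages do not overlap for 7 genes, all lower at P14.

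**Figure D2:**
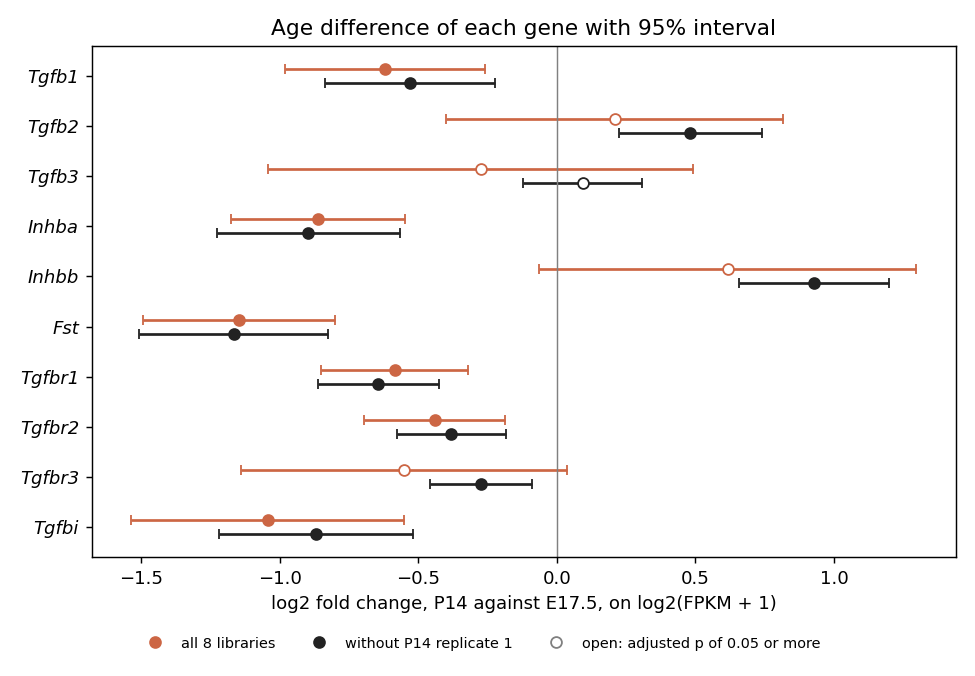
Log2 fold change of P14 against E17.5 on log2(FPKM + 1) (x axis) for each gene (y axis), with 95% intervals from limma, for all 8 libraries and without P14 replicate 1. The intervals of Tgfb2, Tgfb3, Tgfbr3 and Inhbb span 0 with all libraries, and only that of Tgfb3 does so without P14 replicate 1.

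At E17.5 the order of mean FPKM was Tgfbi, Tgfbr2, Tgfb1, Tgfbr3, Tgfbr1, Tgfb3, Fst, Tgfb2, Inhba and Inhbb, from 241 down to 1.89. Neighbours in that order whose libraries overlapped were Tgfbr3 with Tgfbr1, Fst with Tgfb2 and Inhba with Inhbb. Recovered reads per library lay between 78 and 657 for Inhba, Inhbb and Fst, and between 242 and 14148 for the other 7 genes, so counting error is largest for the activin group. For 7 genes other loci on the opposite strand overlap the gene, and no source used here says whether reads were counted by strand. These loci held at most 54 reads in any library, except LOC118567974, which overlaps Tgfb3 and held 35 to 206.

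Among the ligand genes Tgfb1 fell and the other two did not pass. Tgfb1 (gene 21803, chromosome 7, 25386406 to 25404503, plus strand) encodes the ligand best known for restraining immune cells and driving fibrosis. Its E17.5 libraries, in the order of replicates 1 to 4, held 58.1, 48.5, 42.3 and 42.7 FPKM, and its P14 libraries held 25.3, 28.0, 36.9 and 33.3. Every P14 library was below every E17.5 library. The means were 47.9 ± 7.38 and 30.9 ± 5.23 FPKM (SD, n = 4 each), a log2 fold change of -0.62 (SE 0.157, limma adjusted p = 0.0248), and -0.53 (SE 0.134, adjusted p = 0.0113) without P14 replicate 1. The call was lost without E17.5 replicate 1, 2 or 3 or without P14 replicate 2, with adjusted p of 0.0511 to 0.0675. Macrophages, a known source of this ligand, had 8 of 10 markers called lower at P14. Their summed FPKM ran from 365 to 419 in fetal libraries and from 152.6 to 241 in P14 libraries. The part of macrophage number in the Tgfb1 result was not tested.

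Tgfb2 (gene 21808, chromosome 1, 186354984 to 186441504, minus strand) encodes a ligand with large roles in embryonic tissue remodelling. Its E17.5 libraries held 4.47, 4.83, 5.29 and 5.89 FPKM and its P14 libraries 2.99, 8.52, 6.54 and 7.60. P14 replicate 1 was the lowest of all 8 libraries, and the other P14 libraries were above all E17.5 libraries. The log2 fold change was 0.21 with all libraries (SE 0.264, adjusted p = 0.59; 95% interval -0.40 to 0.82) and 0.48 without P14 replicate 1 (SE 0.113, adjusted p = 0.00804). In that smaller comparison the means were 5.12 ± 0.611 FPKM at E17.5 and 7.55 ± 0.989 at P14.

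Tgfb3 (gene 21809, chromosome 12, 86103517 to 86125815, minus strand), whose ligand is known from palate fusion, had E17.5 values of 16.4, 15.97, 12.9 and 14.3 FPKM and P14 values of 5.10, 16.9, 15.9 and 14.9. The 3 P14 libraries other than replicate 1 lay within or just above the E17.5 range. All libraries together gave a log2 fold change of -0.28 (SE 0.333, adjusted p = 0.572; 95% interval -1.04 to 0.49), and it was 0.09 without P14 replicate 1 (SE 0.0946, adjusted p = 0.443; interval -0.12 to 0.31).

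The makeup of the ligand pool, which library scaling cannot change, differed between the P14 libraries. Tgfb1 made up 73.6%, 69.96%, 69.9% and 67.9% of the summed FPKM of the 3 ligand genes in E17.5 replicates 1 to 4. In P14 replicates 1 to 4 it made up 75.8%, 52.4%, 62.2% and 59.7%. The share of Tgfb2 was 5.66% to 9.35% at E17.5, 8.94% in P14 replicate 1 and 11.02% to 15.95% in the other P14 libraries. That of Tgfb3 was 20.7% to 23.1% at E17.5, 15.3% in P14 replicate 1 and 26.7% to 31.6% in the rest. P14 replicate 1 thus had a Tgfb1 share above all E17.5 libraries, and the other 3 P14 libraries had shares below all of them. The summed FPKM of the 3 ligand genes was 60.5 to 78.97 at E17.5, 33.4 in P14 replicate 1 and 53.4 to 59.4 in the other P14 libraries.

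**Figure D3:**
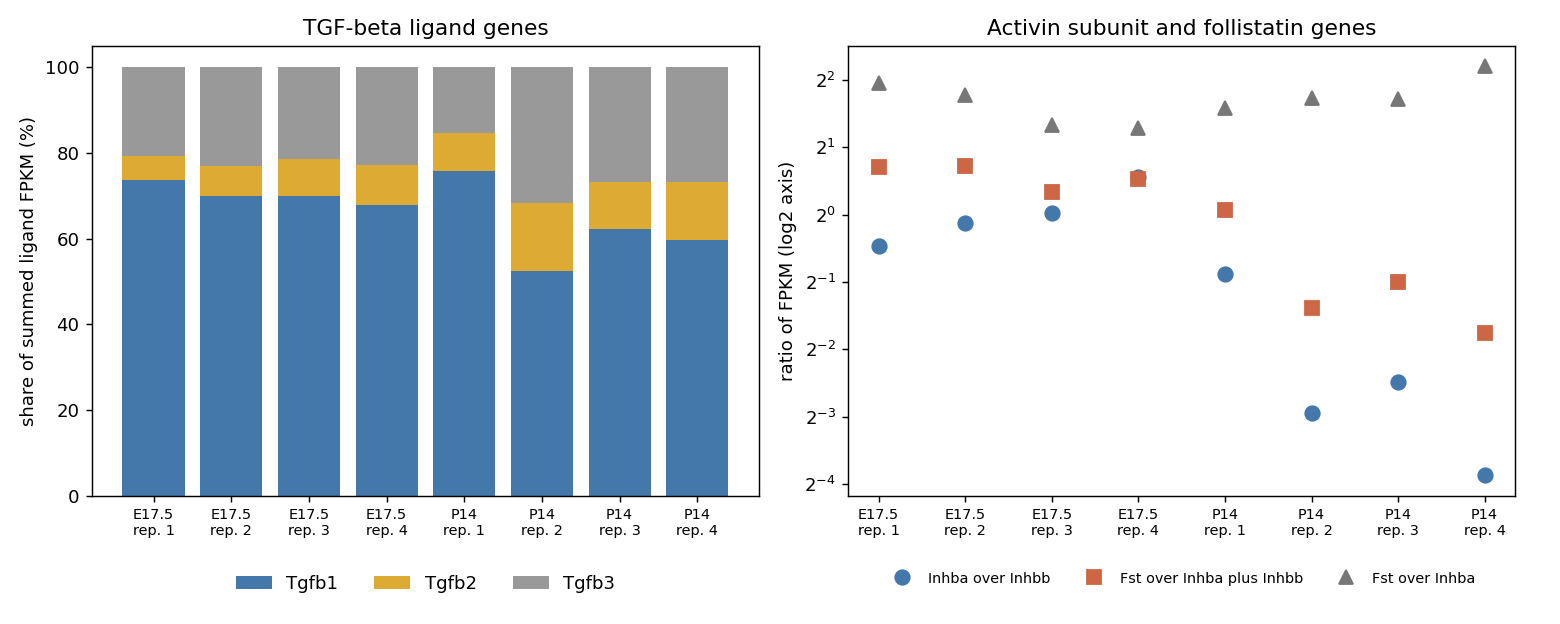
Left, share of the summed FPKM of Tgfb1, Tgfb2 and Tgfb3 (y axis, %) in each library (x axis); right, FPKM ratios among Inhba, Inhbb and Fst (y axis, log2 scale) in the same libraries. Inhba over Inhbb is 0.726 to 1.48 at E17.5 and 0.0685 to 0.54 at P14, and Fst over Inhba overlaps between the ages.

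By the ratio of age means, the largest decreases of the 10 genes were those of Inhba and Fst. Inhba and Inhbb, which encode the subunits of activin A and activin B, had nearly equal mean FPKM at E17.5 and separated at P14. Inhba, the longer gene, held more reads than Inhbb in every E17.5 library. Inhba (gene 16323, chromosome 13, 16178841 to 16206194, plus strand) was measured at 1.56, 1.79, 1.97 and 2.27 FPKM in the fetal libraries, against 0.706, 0.49, 0.848 and 0.345 in those of P14. No P14 library reached the lowest E17.5 value. It fell by 0.86 on the log2 scale (SE 0.137, adjusted p = 0.00447; -0.90, adjusted p = 0.00135, without P14 replicate 1), and the mean went from 1.89 ± 0.301 to 0.597 ± 0.223 FPKM. Inhba entered the test through its E17.5 libraries alone, since none at P14 reached 1 FPKM, so a difference was built into its selection. With every gene above 0 in any library tested, its adjusted p was 0.0119.

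Inhbb (gene 16324, chromosome 1, 119343193 to 119349978, minus strand) held 2.14, 1.95, 1.93 and 1.53 FPKM at E17.5 and 1.31, 3.77, 4.73 and 5.03 at P14. P14 replicate 1 was again the lowest of the 8, and the other P14 libraries were all above the E17.5 range. Its log2 fold change of 0.62 did not pass (SE 0.295, adjusted p = 0.161; 95% interval -0.06 to 1.30). Without P14 replicate 1 Inhbb rose by 0.93 (SE 0.118, adjusted p = 0.000435), from 1.89 ± 0.256 to 4.51 ± 0.656 FPKM, 2.39 times the E17.5 mean. Inhba over Inhbb was 0.726, 0.917, 1.02 and 1.48 in the E17.5 libraries and 0.54, 0.13, 0.179 and 0.0685 in P14 replicates 1 to 4, so this ratio did not overlap between the ages even with P14 replicate 1 included. The sum of both subunit genes was 3.70 to 3.90 FPKM at E17.5, 2.01 in P14 replicate 1 and 4.26 to 5.57 in the other P14 libraries. That sum depends on the lengths used, 14541 bases for Inhba and 4257 for Inhbb. Before division by length, Inhba counts were 434, 451, 543 and 657 in the fetal libraries, then 144, 130, 231 and 96 in P14 replicates 1 to 4. Those of Inhbb were 175, 144, 156 and 130, then 78, 293, 377 and 410. Whether the sum rises under other weightings was not tested.

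Fst (gene 14313, chromosome 13, 114588798 to 114595522, minus strand) encodes follistatin. Its fetal libraries held 6.03, 6.14, 4.94 and 5.51 FPKM and its P14 libraries 2.12, 1.63, 2.80 and 1.59. The ages did not overlap, and P14 replicate 1 was within the range of the other P14 libraries. The mean went from 5.65 ± 0.553 to 2.03 ± 0.565 FPKM (log2 fold change -1.15, SE 0.151, adjusted p = 0.00224; -1.17, adjusted p = 0.000442, without P14 replicate 1). Fst over Inhba overlapped between the ages, at 2.43 to 3.88 in fetal and 2.999 to 4.60 in P14 libraries. Fst over the sum of Inhba and Inhbb was 1.26 to 1.65 at E17.5 and 1.05, 0.382, 0.503 and 0.295 in P14 replicates 1 to 4, all below the E17.5 range. The ratio depends on the greater length used for Inhba than for Inhbb, and other weightings were not tested.

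The TGF-beta type I and type II receptor genes fell. Tgfbr1 (gene 21812, chromosome 4, 47353222 to 47414926, plus strand), the signalling type I receptor, had E17.5 values of 18.1, 17.8, 21.5 and 22.1 FPKM and P14 values of 14.7, 11.7, 12.96 and 12.3. Here P14 replicate 1 was the highest of the P14 libraries, and still below every E17.5 library. On the log2 scale it fell by 0.59 (SE 0.115, adjusted p = 0.00992; -0.65, adjusted p = 0.000896, without P14 replicate 1), and the means were 19.9 ± 2.23 and 12.9 ± 1.29 FPKM. Tgfbr2 (gene 21813, chromosome 9, 115916763 to 116004431, minus strand), the ligand-binding type II receptor, had E17.5 values of 60.9, 66.2, 61.3 and 60.1 FPKM, against 39.9, 42.0, 50.7 and 50.1 in the P14 libraries. It fell by 0.44 (SE 0.111, adjusted p = 0.0241; -0.38, adjusted p = 0.00683, without P14 replicate 1), with no overlap of the ages. Tgfbr2 no longer passed when P14 replicate 2 or any single E17.5 library was left out (adjusted p 0.0549 to 0.0737). The type II gene stood above the type I gene in all 8 libraries, at 2.72 to 3.71 times its FPKM at E17.5 and 2.72 to 4.08 times at P14.

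Tgfbr3 (gene 21814, chromosome 5, 107254433 to 107437495, minus strand) encodes betaglycan, which also lets inhibin compete with activin. It was at 20.96, 23.2, 23.4 and 22.98 FPKM in the fetal libraries. At P14 it was at 8.07, 16.99, 20.3 and 18.5, all below the E17.5 libraries. P14 replicate 1 was the lowest, with 0.434 times the mean FPKM of the other 3. With all libraries the gene did not pass (-0.55, SE 0.256, adjusted p = 0.149; 95% interval -1.14 to 0.04). Without that library the decrease was smaller and passed, at -0.27 (SE 0.0807, adjusted p = 0.0216).

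Tgfbi (gene 21810, chromosome 13, 56757399 to 56787172, plus strand) encodes a secreted adhesion protein named for its induction by TGF-beta, and it had the highest level of the 10 genes in every library. The fetal libraries held 269, 255, 223 and 218 FPKM and the P14 libraries 80.4, 110.2, 170.2 and 120.03, without overlap. The mean went from 241 ± 24.8 to 120.2 ± 37.4 FPKM (log2 fold change -1.04, SE 0.214, adjusted p = 0.0118; -0.87, adjusted p = 0.00207, without P14 replicate 1). Tgfbi over Tgfb1 was 4.63 to 5.27 in fetal and 3.18 to 4.61 in P14 libraries.

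The promoter sequences are shown for Tgfb1 beside Tgfb2 and Inhba beside Inhbb, in each of which the first gene was called lower at P14 and the second did not pass with all libraries and was called higher without P14 replicate 1. The difference between the genes of a pair was not tested. A further one is shown for Tgfbi, whose induction by the pathway gave it its name. RefSeq start sites on GRCm38, an older build than that of the gene table, were matched by gene identifier for 7 of the 10 genes. Tgfb3, Tgfbr3 and Fst had no entry. Each run is the 250 bases before the start, 5′ to 3′ on the gene's strand. Capitals mark CAGAC, the core that SMAD3 and SMAD4 recognise, and TATAAA, the TATA box, on either strand (CAGAC on the other strand reads GTCTG).
Tgfb1 (chr7:25686752-25687001, plus strand): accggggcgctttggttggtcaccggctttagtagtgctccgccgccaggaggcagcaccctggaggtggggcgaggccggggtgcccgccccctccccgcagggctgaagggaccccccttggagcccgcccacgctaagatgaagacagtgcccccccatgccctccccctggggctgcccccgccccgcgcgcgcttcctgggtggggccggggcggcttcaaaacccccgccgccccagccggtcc
Tgfb2 (chr1:186705990-186706239, minus strand): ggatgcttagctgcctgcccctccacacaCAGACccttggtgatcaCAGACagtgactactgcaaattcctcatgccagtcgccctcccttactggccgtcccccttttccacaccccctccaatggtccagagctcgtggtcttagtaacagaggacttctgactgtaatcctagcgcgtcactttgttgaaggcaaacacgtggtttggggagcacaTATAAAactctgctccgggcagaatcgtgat
Inhba (chr13:16011601-16011850, plus strand): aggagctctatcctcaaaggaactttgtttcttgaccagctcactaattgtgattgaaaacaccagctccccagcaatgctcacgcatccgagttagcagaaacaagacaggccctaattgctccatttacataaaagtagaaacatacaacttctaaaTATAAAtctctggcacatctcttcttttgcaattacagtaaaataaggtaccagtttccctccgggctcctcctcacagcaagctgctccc
Inhbb (chr1:119422249-119422498, minus strand): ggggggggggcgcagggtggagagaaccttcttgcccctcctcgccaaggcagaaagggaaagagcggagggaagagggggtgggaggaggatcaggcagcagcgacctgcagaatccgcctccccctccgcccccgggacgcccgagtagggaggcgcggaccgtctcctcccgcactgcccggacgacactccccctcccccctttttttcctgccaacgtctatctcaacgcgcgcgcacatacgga
Tgfbi (chr13:56609336-56609585, plus strand): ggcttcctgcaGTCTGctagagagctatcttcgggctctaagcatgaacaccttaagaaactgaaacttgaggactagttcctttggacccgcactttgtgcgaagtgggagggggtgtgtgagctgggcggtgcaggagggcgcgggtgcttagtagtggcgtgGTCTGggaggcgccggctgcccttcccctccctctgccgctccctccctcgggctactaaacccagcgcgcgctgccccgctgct

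The paired promoters differed in base composition. The windows of Tgfb1 and Inhbb were 75.2% and 68.0% G or C, with 21 CG dinucleotides each. Those of Tgfb2 and Inhba were 53.6% and 43.2%, with 8 and 3, and the median over all 32851 RefSeq windows of this length was 52.4% and 6. CAGAC was found at 2 places for Tgfb2 and for Tgfbi, at 1 for Tgfbr2 and for the second listed start of Tgfbr1, and at none for Tgfb1, Inhba, Inhbb and the first start of Tgfbr1. It occurs in 42.2% of all windows. TATAAA began 31 bases before the start of Tgfb2 and 91 before that of Inhba, and occurs in 12.4% of all windows. The palindrome GTCTAGAC (0.17% of all windows), the TEAD core GGAATG (12.6%) and the AP-1 site TGANTCA (6.75%), searched on both strands, had no match in the 8 windows of these genes, and no motif matches overlapped.

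Around these genes, 86 of 87 other pathway genes were matched by name, 74 were tested, and 6 rose and 22 fell (14 and 32 without P14 replicate 1). The background, which also stands beside the count of each list below, was 9.72% and 15.0% of all tested genes with all libraries. Without P14 replicate 1 it was 22.6% and 26.9%. The median log2 fold change of the 74 was -0.27, against 0.00 for all tested genes. Without P14 replicate 1 these medians were -0.19 and -0.025.

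Among 5 tested further ligands and convertases, 1 rose and 2 fell. Pcsk6, a proprotein convertase, fell by 1.15 (SE 0.197, adjusted p = 0.00597), and Gdf11, a ligand that uses activin receptors, by 0.71 (adjusted p = 0.00447). Inha, the inhibin alpha subunit, which pairs with the beta subunits to oppose activin, had E17.5 values of 7.69, 7.21, 5.85 and 5.84 FPKM and P14 values of 8.40, 10.95, 10.2 and 8.46. It rose by 0.46 (adjusted p = 0.0395). That call was lost without E17.5 replicates 2, 3 or 4 or P14 replicates 2, 3 or 4 (0.0578 to 0.117), and after rescaling to TPM (transcripts scaled to a fixed sum per library; 0.288), with no filter (0.0809), with quantile scaling (0.0516) and in limma's voom (0.145). Furin, the convertase that cleaves TGF-beta precursors, had the highest mean of this list over the 8 libraries together, but at E17.5 its mean of 20.4 FPKM was below the 33.9 of Pcsk6. Its log2 fold change was 0.49 (adjusted p = 0.114), or 0.30 (0.0553) without P14 replicate 1, where it was at 43.2 FPKM.

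Of 8 tested receptors and co-receptors, none rose and 3 fell. Acvrl1 (ALK1) and Eng (endoglin), receptors of vessel lining, went from 63.6 ± 5.76 to 20.7 ± 3.56 FPKM and from 141 ± 7.87 to 62.6 ± 19.9 FPKM (log2 fold changes -1.59, adjusted p = 0.000695, and -1.23, adjusted p = 0.0111). Without P14 replicate 1 these fold changes were -1.46 and -0.96 (limma adjusted p = 1.34e-05 and 7.83e-05). Eng was at 34.0 FPKM in that library and 66.7 to 79.9 in the other P14 libraries. Acvr1, a type I receptor, fell by 0.59 (adjusted p = 0.00806). Of 10 blood endothelial markers, 6 were called lower at P14 and none higher with all libraries, and 6 lower and 2 higher without P14 replicate 1, with summed FPKM of 695 to 733 in fetal and 264 to 589 in P14 libraries. Their part in the Acvrl1 and Eng results was not tested. The activin receptor genes Acvr1b, Acvr2a and Acvr2b did not pass, with log2 fold changes of 0.37, 0.37 and -0.17 (adjusted p = 0.544, 0.141 and 0.26). Without P14 replicate 1 these were -0.10, 0.22 and -0.20 (0.533, 0.106 and 0.113), so that of Acvr1b changed sign.

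In the latent complex and its activators, 1 of 15 tested genes rose and 5 fell. Fbn2, a fetal fibrillin that anchors latent complexes, went from 54.1 ± 3.27 to 15.7 ± 6.46 FPKM (-1.84, adjusted p = 0.00709). It was at 6.24 FPKM in P14 replicate 1. Without that library its P14 mean was 18.9 ± 1.61 FPKM and its log2 fold change -1.47 (limma adjusted p = 1.08e-05). Lrrc32, the cell-surface anchor GARP, fell by 1.28 (adjusted p = 0.00228), and Ltbp2, a matrix protein of the LTBP family, rose from 2.63 ± 0.255 to 6.43 ± 1.87 FPKM (adjusted p = 0.0109), a call lost after rescaling to TPM (0.0551). Itgb1, the integrin beta subunit with the highest level in the list, had -0.39 (adjusted p = 0.216), and -0.16 (0.127) without P14 replicate 1, where it was at 165.3 FPKM against 286 to 333 in the other P14 libraries.

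Of 9 tested extracellular antagonists, 1 rose and 2 fell. Htra1, a secreted protease, rose by 1.38 (adjusted p = 0.00603), while the proteoglycan gene Bgn fell by 1.02 (adjusted p = 0.00427) and Vasn by 0.57 (adjusted p = 0.0143). Dcn, which encodes the ligand-binding proteoglycan decorin, was at -0.12 (adjusted p = 0.801) and rose by 0.23 without P14 replicate 1 (adjusted p = 0.0237). With rescaling to TPM as well, it was at 0.16 and did not pass (0.0822).

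Among 6 tested SMADs and partners, none rose and the 2 that fell were the inhibitory SMADs, which feed back on the receptors. Smad7 had E17.5 values of 11.9, 12.03, 9.57 and 9.69 FPKM and P14 values of 8.33, 3.52, 4.91 and 3.84 (-0.99, adjusted p = 0.0185), and Smad6 fell by 0.68 (adjusted p = 0.00383). The Smad7 call was lost without E17.5 replicate 1 or 2 (0.0519 and 0.0551). Without P14 replicate 1, 5 of the 6 fell, Smad2 by 0.38 (adjusted p = 0.00401) and Smad3 by 0.25 (adjusted p = 0.0188). Smad4, the common partner, did not pass in either comparison, with log2 fold changes of 0.09 and 0.21, and its sign turned after rescaling to TPM (-0.10) and after quantile scaling (-0.0075).

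Of 13 intracellular inhibitors, 2 rose and 2 fell (2 and 3 without P14 replicate 1), where 9.72% of all tested genes rose and 15.0% fell with all libraries. Pmepa1, a feedback inhibitor induced by TGF-beta, fell by 0.67 (adjusted p = 0.00434) and Smurf2, a ubiquitin ligase that targets receptors, by 0.52 (adjusted p = 0.0107). Nedd4l, another ubiquitin ligase, rose by 0.53 (adjusted p = 0.00952), which was lost after rescaling to TPM (0.142). Ski, a SMAD co-repressor, was at -0.03 (adjusted p = 0.883). Its sign turned with median-of-ratios scaling (0.0052) and without P14 replicate 1, where it was 0.07 (0.404), or 0.0009 when TPM were used as well.

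Genes known to respond to TGF-beta went in both directions. Of 19 tested, 2 rose and 6 fell (8 and 8 without P14 replicate 1). Ltbp2, described above with the latent complex, is also in this list and was among those that rose. Snai2, a transcription factor of mesenchymal state, went from 35.9 ± 1.96 to 7.52 ± 1.70 FPKM (-2.13, adjusted p = 0.000358), and Lox, which crosslinks collagen and elastin, from 57.7 ± 4.34 to 14.8 ± 6.24 (-2.02, adjusted p = 0.0059). Without P14 replicate 1 their log2 fold changes were -2.02 and -1.63 (limma adjusted p = 8.05e-06 and 7.7e-06). Lox was at 5.51 FPKM in that library and 16.9 to 18.7 in the other P14 libraries. Cdkn1a, the cell-cycle inhibitor p21, was at 67.6 FPKM in P14 replicate 1 and 12.6 to 18.6 in the other P14 libraries, against 5.26 to 7.18 at E17.5 (1.63, adjusted p = 0.0439). It no longer passed with no filter (0.09), nor when P14 replicate 3 or any single E17.5 library was left out (0.0842 to 0.112), and without P14 replicate 1 it was 1.09 (adjusted p = 0.000605). Acta2, smooth muscle actin, had the highest level of the list, at 1134 ± 70.7 FPKM at E17.5, and a log2 fold change of 0.74 (adjusted p = 0.211), or 1.19 (adjusted p = 0.000179) without P14 replicate 1. All 9 tested smooth muscle markers, Acta2 itself among them, were called higher at P14 in that smaller comparison, and none with all libraries.

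**Figure D4:**
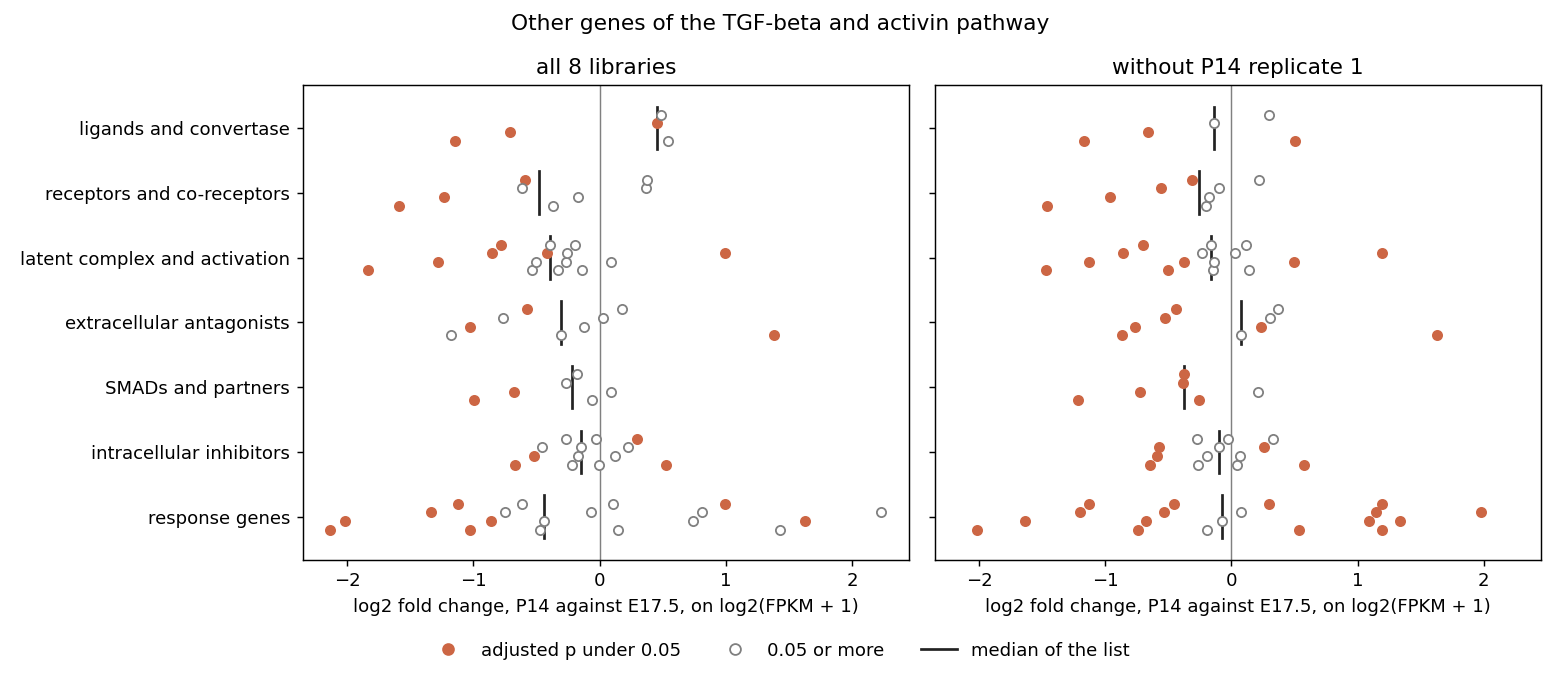
Log2 fold changes of P14 against E17.5 on log2(FPKM + 1) (x axis) for the tested genes of 7 pathway lists (y axis), with all 8 libraries on the left and without P14 replicate 1 on the right. Filled points passed the test; the line marks each list's median, which lay below 0 for 6 of the 7 lists on each side.

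For the 7 genes whose age means differed by at least 0.5 on the log2(FPKM + 1) scale, the protein-coding genes with the most similar profile over the 8 libraries were sought by root mean square difference after centring each gene. The pair nearest to Tgfbr1 was Adam17 and Rab38 (differences of 0.03 and 0.05), and to Tgfb1 Impdh2 and Zc3hc1 (0.09 each). Fst was nearest to Tmem176b and Kcnk6 (0.07 and 0.11), Inhba to Cd300a and Tslp (0.09 and 0.11), and Tgfbi to Pgf and Glt8d2 (0.10 and 0.11). Inhbb was nearest to Rnf207 and Plat (0.10 and 0.12) and Tgfbr3 to Smad9 and Kirrel (0.08 each). These profiles share the 8 libraries and the age difference, and the likeness is a description.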

How the data were processed

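RNA-seq libraries of small-intestinal mesenchyme at E17.5 (n = 4) and P14 (n = 4) were grouped by sample title. The deposited table holds FPKM made by the authors. Per the submitters' processing notes the build was GRCm39 and the tools included HISAT2, featureCounts and DESeq2 1.20.0, with no roles given. Multiplied by gene length, 100% of the FPKM values were whole multiples (tolerance 1e-06) of the value of 1 read in their library, which gave the reads; intervals and SDs do not separate counting error from other spread. Loci without a gene name (302) took 0.183% to 0.246% of reads. Genes with FPKM of at least 1 in at least 4 of 8 libraries were tested (14044) as log2(FPKM + 1) in limma 3.58.1 (R 4.3.3, statmod 1.5.0; trend and robust moderation), two-sided, with Benjamini-Hochberg adjustment. The method was also run on simulated counts. They held no library set apart from the rest, so that run does not bear on P14 replicate 1.

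The genes, the pathway and marker lists and the tests were chosen with earlier results of these data known. All 10 genes are named with every library's value, then from each pathway list up to 3 called genes with the largest change and the gene with the highest mean, and 2 nearest profiles per gene; Acvr1b, Acvr2a, Acvr2b, Smad2, Smad3 and Tagln fall outside that rule, having been picked with their values known. Of 209 list symbols 208 matched by name. The other marker lists are named in no result. They were for B and plasma cells, T and NK cells, platelets, mesothelium, enteric neurons, enteric glia, interstitial cells of Cajal and mast cells. In that order, 4, 3, 3, 9, 10, 5, 5 and 3 of their genes were tested. Of these, 3, 0, 1, 1, 0, 2, 2 and 0 were called higher at P14. Those called lower numbered 0, 0, 0, 0, 0, 0, 0 and 2. Without P14 replicate 1, 3, 0, 2, 8, 6, 4, 3 and 0 were called higher and the numbers called lower were the same.

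Alternatives were a pseudocount of 0.1, no filter, a filter of 5 FPKM, rescaling to TPM, median-of-ratios and quantile scaling, limma without trend and robust moderation, limma's voom on recovered reads, a replicate block and omission of each library.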

Additional observations from a re-analysis of the deposited data

Results flagged for a closer look

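The Tgfb3 value of P14 replicate 1, 5.10 FPKM, was far from the other 3 P14 libraries, which held 14.9 to 16.9 FPKM. The gap to the nearest of them was 0.833 of the whole range of the 4 libraries, above Dixon's 95% critical value for 4 samples. It was the only such value among 20 gene and age groups checked, and chance alone gives about 1 in 20.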

How the results depend on the processing

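Direction and side of the threshold held for Fst, Inhba and Tgfbr1 under every alternative that tested them; Fst, Inhba and Inhbb were not tested with the 5 FPKM filter. Direction alone held for all genes except Tgfb3, whose log2 fold change ran from -0.4254 to 0.0925 over the omissions of a library, above 0 without P14 replicate 1 alone, and was 0.0276 with rescaling to TPM and without P14 replicate 1 together, a setting chosen after seeing the data; the cause was not tested. Both of these settings brought Tgfb2, Tgfbr3 and Inhbb past the threshold. Tgfb1 also lost its call with no filter (adjusted p = 0.0532) and Tgfbr2 with voom (0.0617). Leaving out each library in turn gave 4 to 9 of the 10 genes, 21 to 46 of the pathway genes and 1735 to 6958 of all tested genes called, against 6, 28 and 3473; the highest of each was without P14 replicate 1 and the lowest of all genes without E17.5 replicate 3. Counts of all genes also moved by over 1.5 times without E17.5 replicate 2 (2041), E17.5 replicate 4 (2001) and P14 replicate 3 (2223). Without P14 replicate 1 and with rescaling the called genes were 9, 49 and 7128. Rescaling to TPM shifted the median of all genes by -0.18 on the log2 scale and took the increases among called genes from 39.3% to 25.1%; 6 of the 10 genes were again called, all lower. The replicate block gave 3, 18 and 1744 called genes, and Tgfb1, Tgfbr2 and Tgfbi lost their calls (adjusted p 0.0966, 0.0812 and 0.0526), as did the named pathway genes Inha (0.0905), Acvr1 (0.0508), Vasn (0.0665), Smurf2 (0.0588), Nedd4l (0.0586) and Cdkn1a (0.0744). Same-numbered libraries of the 2 ages did not deviate together (correlations across genes of -0.06 to 0.01). That gave no sign of pairing by number, but so few libraries cannot exclude it.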

Other observations

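The pathway genes Itgb6, Acvr1b, Pcsk5 and Cdkn2b had their highest level in P14 replicate 1, the library with the most epithelial marker RNA, and Lefty1 did not; all 5 were chosen after their values were seen. Itgb6 and Lefty1 were below the filter on low values, and Acvr1b, Pcsk5 and Cdkn2b did not pass the test with all libraries (limma adjusted p = 0.544, 0.54 and 0.0757). Itgb6, an integrin subunit that activates latent TGF-beta and is known from epithelium, was at 11.4 FPKM there, at 0.13 to 0.858 in the other P14 libraries and at no more than 0.0193 at E17.5. Acvr1b, a type I activin receptor, was at 32.96 FPKM there, against 6.82 to 10.06 in the other P14 libraries and 8.34 to 9.63 at E17.5. Pcsk5, a proprotein convertase, was at 25.5 FPKM there and at 2.49 to 4.34 in the other 7 libraries, and its log2 fold change of 0.54 became -0.14 (adjusted p = 0.504) without P14 replicate 1. Cdkn2b, a cell-cycle inhibitor known as a TGF-beta response gene, was at 33.2 FPKM there, at 1.09 to 3.18 in the other P14 libraries and at 0.0748 to 0.207 at E17.5. The ages did not overlap, and without P14 replicate 1 Cdkn2b rose by 1.34 on the log2 scale (adjusted p = 0.00141, beside 2.23 with all libraries); it entered the test through its P14 libraries alone, so a difference was built into its selection. Lefty1, an antagonist of nodal signalling, was lowest there among the P14 libraries, with 0.836 FPKM, against 1.58 to 2.74 in the other P14 libraries and 0.372 to 0.9 at E17.5.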
